A study of Homo sapiens with 6 samples.

Results

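The DNA replication fork machinery is described here as 44 genes out of the 26255 in the deposited files, chosen by gene symbol. They encode the origin recognition complex, the helicase cofactors CDC45 and GINS, the replicative polymerases, the sliding clamp and its loader, the single-strand binding protein RPA, the enzymes that finish Okazaki fragments, the fork protection and checkpoint proteins and the chromatin assembly factor CAF-1. The expression levels come from RNA-seq of 22RV1 cells, an established human cell line of castration-resistant prostate cancer (CRPC), in full medium. Cells received the vehicle DMSO (3 samples) or 10 nM bruceantin (BCT, 3 samples) for 24 h, and the comparison asks which gene expression programs differ after BCT. Both groups are the same single cell line at the same time point, only 1 dose of BCT was used, and the labels do not say whether the 3 samples of a group were separate cultures, so the p-values measure only the spread between these samples.

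The origin recognition complex marks replication origins and helps to load the MCM helicase, which becomes active once CDC45 and GINS join it. Polymerase alpha-primase then starts each DNA strand with an RNA-DNA primer, polymerase epsilon extends the leading strand and polymerase delta the lagging strand, both held on DNA by the clamp PCNA, which the RFC complex loads. Many genes of this machinery are expressed mainly around the G1/S transition and are known targets of the E2F transcription factors, and their levels are commonly read as a sign of proliferation in tumor cells.

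Levels are given in FPKM, fragment counts scaled to transcript length and to the mapped reads of the sample, which is a level per length, so members can be compared with each other. The number of reads behind each value is unknown. The relative depth was 0.877 to 1 in the DMSO samples and 1.05 to 1.13 in the BCT samples, taking DMSO replicate 1 as 1. The first principal component of all genes tested divided DMSO from BCT samples and held 72.0% of the variance. On it BCT replicate 1 (40.2) was nearer to the DMSO samples (-57.7 to -54.3) than BCT replicates 2 (65.0) and 3 (63.8) were. In 30 of the 44 members, BCT replicate 1 likewise lay between the DMSO samples and the other BCT samples, so counts are also given without it. The share of all genes tested with this order was not computed. Of 8 luminal prostate markers, 7 were above 1 FPKM in all samples, and KLK3, which encodes prostate-specific antigen, was below 1 FPKM in BCT replicates 2 and 3 (0.977 and 0.863 FPKM). The 8 markers summed to 914 to 923 FPKM with DMSO and 1890 to 2050 FPKM with BCT. Of 9 markers of blood, endothelium and fibroblasts, 6 stayed below 1 FPKM in every sample and 2, CD68 and COL1A1, were above 1 FPKM in all. The 9 summed to 4.64 to 5.86 FPKM with DMSO and 11.8 to 15.3 FPKM with BCT, while PTPRC, CD3E, PECAM1 and VWF reached at most 0.067 FPKM. The part of these markers in the results was not tested.

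The promoters of 9 members are printed first, since known E2F targets are common in this machinery and they cover members that fell with and without an E2F word beside members that rose or did not pass the test. Each line gives the 100 bases before the start site, 5′ to 3′ on the strand of the gene, from RefSeq on GRCh38.p14. PCNA has 2 start sites there, and the printed stretch was chosen because it holds an E2F word. The window of the other PCNA start site holds none. Capitals mark an E2F word, one of TTTCCCGC, TTTCGCGC, TTTGCCGC and TTTGGCGC, which on the opposite strand reads in reverse complement, as GCGGGAAA for the first. The first set of 4 belongs to genes that fell with BCT, at chr20:5126623-5126722 (PCNA, minus strand), chr16:85688955-85689054 (GINS2, minus strand), chr11:65261862-65261961 (POLA2, plus strand) and chr13:33818049-33818148 (RFC3, plus strand).
PCNA: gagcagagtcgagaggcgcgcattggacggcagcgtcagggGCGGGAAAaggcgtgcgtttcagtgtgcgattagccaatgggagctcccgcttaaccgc
GINS2: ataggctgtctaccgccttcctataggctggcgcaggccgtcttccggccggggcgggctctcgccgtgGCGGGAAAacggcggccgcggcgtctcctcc
POLA2: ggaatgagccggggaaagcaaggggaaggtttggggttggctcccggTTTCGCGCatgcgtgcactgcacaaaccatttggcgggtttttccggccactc
RFC3: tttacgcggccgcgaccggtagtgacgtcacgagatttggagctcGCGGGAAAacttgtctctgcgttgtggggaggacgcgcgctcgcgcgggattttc

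The second set holds an E2F word as well, but belongs to a gene with a small decrease (ORC3, chr6:87590035-87590134, plus strand) and a gene whose groups overlapped (POLE4, chr2:74958543-74958642, plus strand).
ORC3: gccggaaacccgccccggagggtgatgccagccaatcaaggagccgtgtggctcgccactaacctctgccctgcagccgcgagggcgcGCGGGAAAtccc
POLE4: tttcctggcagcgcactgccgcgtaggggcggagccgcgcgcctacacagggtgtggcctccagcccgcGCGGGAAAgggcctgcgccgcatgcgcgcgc

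The third set has none of these words in the printed stretch or the rest of the window. It belongs to FEN1 (chr11:61792811-61792910, plus strand), which fell, RFC1 (chr4:39366363-39366462, minus strand), whose groups overlapped, and ORC5 (chr7:104208014-104208113, minus strand), which rose.
FEN1: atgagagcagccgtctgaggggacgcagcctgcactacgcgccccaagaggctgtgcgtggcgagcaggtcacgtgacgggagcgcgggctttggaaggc
RFC1: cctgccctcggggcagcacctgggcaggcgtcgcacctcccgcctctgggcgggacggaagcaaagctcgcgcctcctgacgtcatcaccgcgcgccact
ORC5: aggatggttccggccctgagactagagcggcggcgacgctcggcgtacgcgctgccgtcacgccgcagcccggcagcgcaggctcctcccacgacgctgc

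All 44 members were in the files and all passed the filter of a mean of at least 1 FPKM, with at least 1 FPKM in every single sample. In DMSO-treated cells their mean levels ran from 7.96 FPKM for DNA2 to 310.0 FPKM for PCNA. The members summed to 2220 to 2299 FPKM in the DMSO samples and to 1053 to 1159 FPKM in the BCT samples. A gene was called where its log2 fold change exceeded 0.85 in size with an adjusted p below 0.05 (limma on log2(FPKM + 0.1), adjusted by Benjamini-Hochberg over the 12729 genes tested). Of the 44 members, 28 were called lower with BCT and none was called higher, while 17.8% of all genes tested were called lower and 13.9% higher. On the adjusted p alone, 38 members fell and 4 rose, against 42.8% and 39.3% of all genes, and the counts were also 38 and 4 at an unadjusted p under 0.05. The 4 were ORC2, ORC4, ORC5 and RNASEH2B, and the 2 members that did not pass were POLE4 and RFC1. Every BCT sample lay below every DMSO sample in 38 members and above in 4, where the shares over all genes were 44.3% and 41.0%. The median log2 fold change was -1.04 over the members and -0.04 over all genes tested, and 25 members had a log2 fold change of -1 or lower. Fewer cells in S phase and less of these transcripts per cell cannot be told apart in such bulk samples, and the deposited files hold expression values only. Without BCT replicate 1, 29 members were called lower, with a median of -1.09, and 19.8% of all genes were called lower.

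The scaling of the samples bears on these counts. The FPKM values summed to 1169649 to 1572321 in the DMSO samples and to 757534 to 799838 in the BCT samples, and MIR6087 alone held 43.5% to 55.3% of the sum with DMSO and 31.7% to 32.5% with BCT. When each sample was rescaled to the same sum, the median of all genes moved to 0.72, with 668 genes lower and 5614 higher, and the members split into 11 called lower and 4 called higher, with 19 lower and 8 higher on the adjusted p alone. The 11 were GINS1, GINS2, GINS4, POLD1, POLE2, PCNA, FEN1, LIG1, TIMELESS, CLSPN and CHAF1B, and the 4 were ORC2, ORC4, ORC5 and RNASEH2B. With equal sums leaving MIR6087 out, the median of all genes was 0.34, with 1208 genes lower and 3370 higher, and 15 members (these 11, ORC1, RPA1, WDHD1 and CHAF1A) were called lower and 1, ORC4, higher. The median of the members differed from the median of all genes by -1.004 as deposited and by -0.996 and -1.001 under these scalings, and 38 of the 44 members lay below that median each time. Directions below are those of the values as deposited, and a member whose sign turned with equal sums is given with that value.

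**Figure D1:**
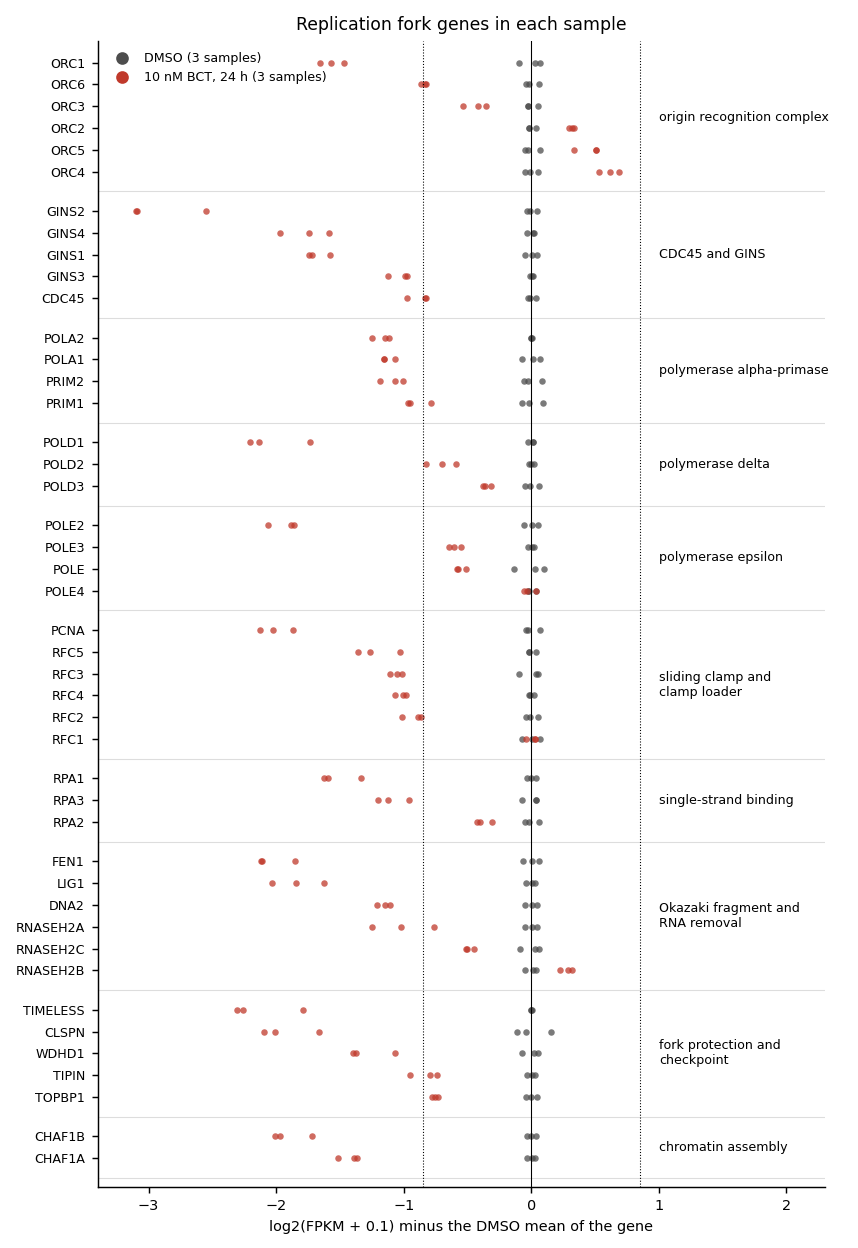
Each point is 1 sample, drawn as log2(FPKM + 0.1) minus the mean of the DMSO samples of that gene, for the 44 members sorted within their role groups, with DMSO in grey and BCT in red. Dotted lines mark a difference of 0.85 in either direction. As deposited, the red points lie left of all grey points in 38 members and right of them in ORC2, ORC4, ORC5 and RNASEH2B. With equal FPKM sums 8 of the 38 (ORC3, POLD2, POLD3, POLE, POLE3, RPA2, RNASEH2C and TOPBP1) had a fold change above 0.

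**Figure D2:**
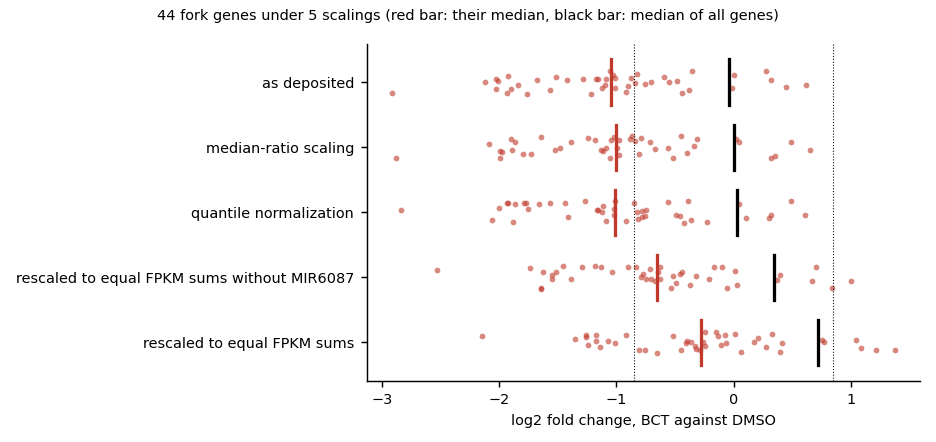
The log2 fold change of the 44 members (points) under 5 scalings of the samples, with the median of the members in red and the median of all genes tested in black. Both medians shift together, from -1.04 and -0.04 as deposited to -0.28 and 0.72 with equal FPKM sums.

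The origin recognition complex was split and held 3 of the 4 members that rose. On the adjusted p alone 3 of its 6 subunits fell and 3 rose. For 6 genes that is near the shares over all genes, 42.8% lower and 39.3% higher. ORC1, the large subunit that varies over the cell cycle, fell, as did ORC3 and ORC6, while ORC2, ORC4 and ORC5 rose. ORC1 (chr1:52838501-52870095 on hg19, the build of all gene positions below) was at 14.01, 13.6 and 12.5 FPKM with DMSO and 4.17, 4.76 and 4.44 FPKM with BCT, so the groups were far apart and BCT replicate 1 was the lowest. Its log2 fold change was -1.56 ± 0.07 (SE; adjusted p = 8.3e-07), and it was the only subunit called as deposited. ORC1 was not called with equal FPKM sums (-0.81), while ORC2 (1.08), ORC4 (1.38) and ORC5 (1.21) were called higher. In that setting 5614 of the 12729 genes tested were called higher. ORC2 was at 13.95, 14.55 and 13.99 FPKM with DMSO and 17.4, 17.9 and 17.7 FPKM with BCT, a small rise of 0.32 ± 0.05 (adjusted p = 0.00033). Within samples the mean ratio of ORC1 to ORC2 went from 0.943 with DMSO to 0.256 with BCT.

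ORC4 had the largest rise of the 44 members as deposited, from 11.2, 11.7 and 10.9 FPKM with DMSO to 16.3, 17.3 and 18.2 FPKM with BCT. All BCT samples were above all DMSO samples, and the log2 fold change was 0.61 ± 0.06 (adjusted p = 2.2e-05). The interval deposited for ORC4 also holds ACVR2A and MBD5. Without strand in the library kit, reads from overlapping exons cannot be told apart, but whether exons of these genes overlap was not examined. ORC5 rose by 0.45 ± 0.06 (adjusted p = 0.00022), from a mean of 26.7 to 36.5 FPKM. After a correction for GC content and length the log2 fold changes were 0.34 for ORC4, 0.41 for ORC5 and 0.17 for ORC2. ORC6, the smallest and most loosely bound subunit, fell from 48.6 to 27.1 FPKM, and its log2 fold change of -0.84 ± 0.05 lay just outside the limit for a call. ORC3 fell from 15.1 to 11.1 FPKM, by 0.44 on the log2 scale, and had a value of 0.33 with equal FPKM sums. The median over the 6 subunits was -0.06 and differed from the median of all genes by -0.02.

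CDC45 and the 4 GINS subunits, which turn the MCM ring into the active helicase, were all called lower, with a median of -1.68. GINS2 (chr16:85709804-85723679) had the largest decrease of all members. It was at 81.5, 77.3 and 78.8 FPKM with DMSO and 13.4, 9.21 and 9.14 FPKM with BCT, with the first BCT sample above the other two. Its log2 fold change was -2.91 ± 0.14 (adjusted p = 8.1e-07), a 7.48-fold lower level. The log2 fold change was -1.68 for GINS1 and -1.77 for GINS4. GINS3 fell by 1.03, from a mean of 34.2 to 16.7 FPKM. The interval deposited for GINS4 also holds AGPAT6.

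CDC45 changed least in this group, from 62.2, 59.5 and 60.3 FPKM with DMSO to 34.0, 34.2 and 30.9 FPKM with BCT. Its groups were well apart, and its log2 fold change of -0.88 ± 0.06 (adjusted p = 2.4e-06) lay just inside the limit. The GINS complex contains each of its subunits in equal number, but their transcripts did not move equally. GINS2 was 2.31 times as high as GINS3 with DMSO and 0.626 times as high with BCT, and the ratios of the samples did not overlap between groups. CDC45 was 1.77 times as high as GINS3 with DMSO and 1.97 times with BCT, a smaller difference that likewise did not overlap between groups.

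Polymerase alpha-primase makes the primers, and its 4 subunits fell by similar amounts, from -0.90 for PRIM1 to -1.17 for POLA2, all called lower as deposited. None of the 4 was called with equal FPKM sums, with or without MIR6087, and their median went from -1.11 to -0.35 with MIR6087 in the sum. POLA2, the accessory subunit, was at 23.4, 23.6 and 23.4 FPKM with DMSO and 10.8, 10.5 and 9.83 FPKM with BCT. The samples of each group were tight and the groups far apart, with a log2 fold change of -1.17 ± 0.05 (adjusted p = 7.8e-07). PRIM1, the catalytic primase subunit, was at 57.4, 51.2 and 53.2 FPKM with DMSO and 31.3, 27.8 and 27.6 FPKM with BCT, a log2 fold change of -0.90 ± 0.07 (adjusted p = 5.3e-06). POLA1, the catalytic polymerase subunit, fell from 11.7 to 5.33 FPKM, and PRIM2, the large primase subunit, from 19.4 to 9.11 FPKM. The ratio of POLA2 to POLA1 was 1.99 with DMSO and 1.93 with BCT and overlapped between the groups (exact permutation test, p = 0.5).

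In polymerase delta the catalytic subunit had the largest decrease, and the median of -0.71 became 0.06 with equal FPKM sums. POLD1 (chr19:50887461-50921275) was at 43.98, 43.9 and 42.8 FPKM with DMSO and 13.0, 9.84 and 9.35 FPKM with BCT. That is a log2 fold change of -2.03 ± 0.11 (adjusted p = 1.3e-06), leaving 24.6% of the DMSO level. POLD2, the second subunit, fell from a mean of 236 to 145 FPKM, by 0.71 on the log2 scale, and was at 0.06 with equal FPKM sums. POLD3, which binds PCNA, was at 14.67, 13.96 and 13.63 FPKM with DMSO and 10.8, 11.3 and 10.9 FPKM with BCT. Its decrease was 0.35 ± 0.05 (adjusted p = 0.00031), with a value of 0.41 under equal FPKM sums. The smallest subunit POLD4, which is not among the members, rose from 23.4 ± 0.44 (SD, n = 3) to 59.0 ± 3.53 FPKM, so the 4 genes of this enzyme changed in both directions.

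In polymerase epsilon only POLE2 was called lower, and the median of -0.58 became 0.19 with equal FPKM sums. POLE2, which connects the polymerase to the helicase, was at 15.7, 16.2 and 15.04 FPKM with DMSO and 4.25, 4.17 and 3.67 FPKM with BCT, a log2 fold change of -1.93 ± 0.07 (adjusted p = 3.9e-07). The catalytic subunit POLE fell from 20.5 to 13.9 FPKM, by 0.56 on the log2 scale, and was not called. POLE had a value of 0.21 with equal FPKM sums. POLE3, a histone-fold subunit, fell by 0.60 as deposited and had a value of 0.17 with equal sums. The interval deposited for POLE3 also holds C9orf43. POLE4, the histone-fold partner of POLE3, was at 51.5, 53.4 and 51.1 FPKM with DMSO and 50.7, 53.5 and 50.03 FPKM with BCT. Its groups overlapped, and the log2 fold change was -0.02 with a 95% interval of -0.13 to 0.10 (adjusted p = 0.76). The value of POLE4 was 0.75 with equal FPKM sums.

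The sliding clamp PCNA (chr20:5095599-5107272) was the most abundant member with DMSO, at 325, 304 and 301 FPKM. With BCT it was at 84.7, 70.7 and 75.9 FPKM, a log2 fold change of -2.01 ± 0.07 (adjusted p = 3.3e-07), which leaves 24.9% of the DMSO level. With BCT, POLD2 (133 to 157 FPKM) was above PCNA in every sample, where with DMSO PCNA was above POLD2 (233 to 239 FPKM) in every sample. The antisense gene PCNA-AS1 lies in the interval deposited for PCNA, and 3 pseudogenes carry its name in the annotation.

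Among the subunits of the clamp loader, the 4 small ones, RFC2, RFC3, RFC4 and RFC5, were all called lower, with log2 fold changes of -0.92, -1.05, -1.02 and -1.22 as deposited. None of these 4 was called with equal FPKM sums, with or without MIR6087, and with MIR6087 in the sum their values were -0.15, -0.29, -0.25 and -0.45. RFC1, the large subunit that opens the clamp, was at 28.5, 29.8 and 27.1 FPKM with DMSO and 27.6, 29.1 and 29.0 FPKM with BCT. Its groups overlapped, with a log2 fold change of 0.01 and a 95% interval of -0.12 to 0.13 (adjusted p = 0.94). The value of RFC1 was 0.77 with equal FPKM sums and 0.39 with MIR6087 left out of the sum. The interval deposited for RFC1 is long and also holds 11 other genes, RPL9 and UGDH among them, and that for RFC4 also holds EIF4A2 and small nucleolar RNAs. Within samples, RFC3 went from 1.54 to 0.740 times the level of RFC1, and RFC5 from 1.83 to 0.785 times.

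The single-strand binding protein RPA covers the unwound strands. RPA1, its large DNA-binding subunit, was at 61.4, 59.9 and 58.3 FPKM with DMSO and 23.7, 19.7 and 19.3 FPKM with BCT. The log2 fold change of RPA1 was -1.52 ± 0.08 (adjusted p = 1.1e-06). RPA3, the small subunit, fell from a mean of 55.7 to 26.1 FPKM and was called lower, and its deposited interval also holds UMAD1. RPA2, the subunit phosphorylated in replication stress, was at 74.2, 70.2 and 68.7 FPKM with DMSO and 52.9, 57.4 and 53.8 FPKM with BCT. Its decrease of 0.38 ± 0.05 (adjusted p = 0.00022) was not called, and with equal FPKM sums its value was 0.39. RPA2 thus went from 1.19 to 2.62 times the level of RPA1.

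**Figure D3:**
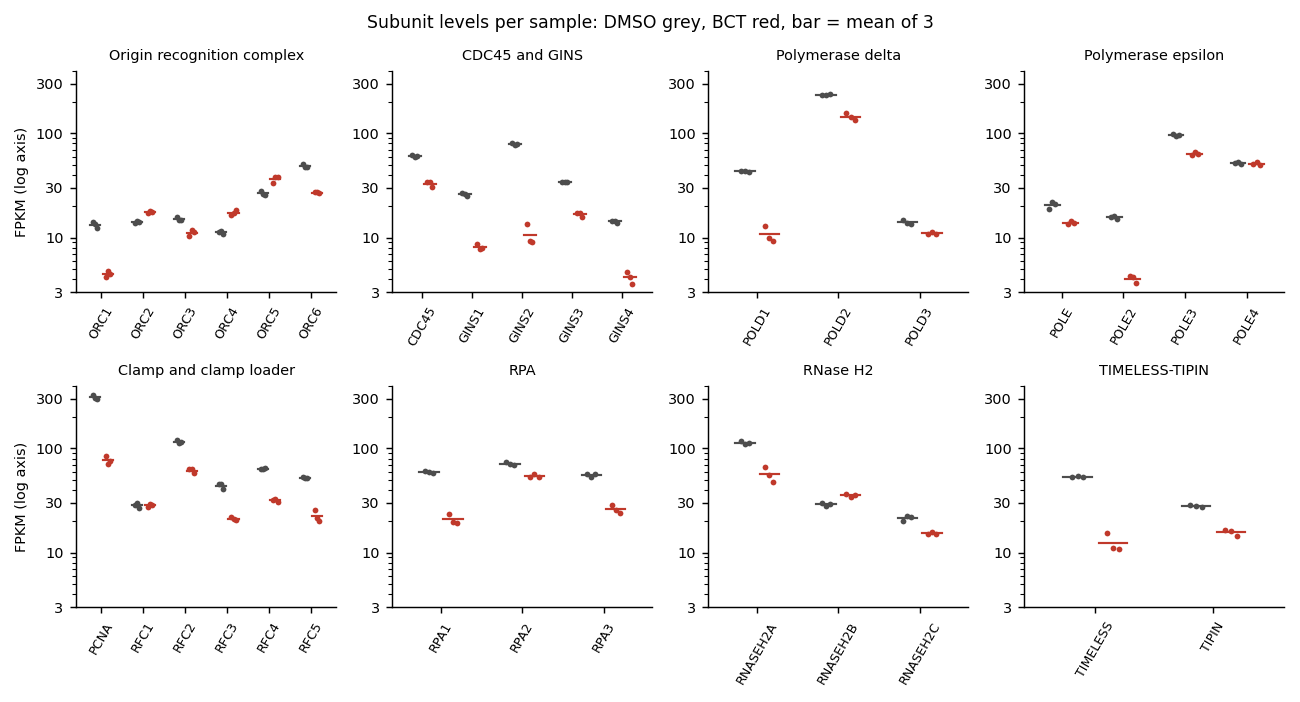
FPKM on a log axis for the subunits of 8 assemblies, with 3 DMSO samples in grey, 3 BCT samples in red and a bar at the mean of each group. ORC1, GINS2, POLD1, POLE2, PCNA, RPA1, RNASEH2A and TIMELESS show the widest gaps in their panels, while the groups of POLE4 and RFC1 overlap. ORC2, ORC4, ORC5 and RNASEH2B are higher with BCT.

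On the lagging strand, FEN1 trims the flap that forms when a new Okazaki fragment meets the older one and LIG1 seals the nick. FEN1 (chr11:61560383-61564710) was at 108, 98.7 and 103 FPKM with DMSO and 28.5, 23.9 and 23.6 FPKM with BCT, a log2 fold change of -2.03 ± 0.08 (adjusted p = 4.3e-07). LIG1 fell from 50.3 to 14.1 FPKM, by 1.84 on the log2 scale. DNA2, the nuclease and helicase for long flaps and the least abundant member with DMSO, fell from 7.96 to 3.52 FPKM. FEN1 was 2.05 times as high as LIG1 with DMSO and 1.8 times with BCT, and the ratios of the samples did not overlap.

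RNase H2 removes RNA and single ribonucleotides from DNA, and its 3 subunits moved apart. RNASEH2A, the catalytic subunit, fell from 117, 110 and 114 FPKM with DMSO to 66.9, 55.9 and 47.7 FPKM with BCT, a log2 fold change of -1.01 ± 0.11 (adjusted p = 3.7e-05). The BCT samples of RNASEH2A were spread widely but all below the DMSO samples. RNASEH2B was at 30.1, 28.2 and 29.5 FPKM with DMSO and 36.6, 34.2 and 35.8 FPKM with BCT, a rise of 0.28 ± 0.05 (adjusted p = 0.001) as deposited and of 0.14 after the correction for GC content and length. Its deposited interval also holds the antisense gene RNASEH2B-AS1. RNASEH2C fell by 0.49, with a value of 0.28 under equal FPKM sums, and shares its interval with KAT5. RNASEH2A went from 3.87 to 1.58 times the level of RNASEH2B.

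All 5 genes of fork protection and the fork checkpoint fell as deposited, 3 of them called, and TOPBP1 alone was above 0 with equal FPKM sums. TIMELESS (chr12:56810147-56843210), which keeps helicase and polymerase coupled, was at 53.5, 53.9 and 53.5 FPKM with DMSO and 15.4, 11.1 and 10.7 FPKM with BCT. Its log2 fold change was -2.12 ± 0.13 (adjusted p = 1.7e-06), the second largest decrease of the 44, and BCT replicate 1 was again the nearest to DMSO. Its binding partner TIPIN fell by 0.83, from 27.9 to 15.7 FPKM, just outside the limit for a call. TIPIN was therefore 0.521 times as high as TIMELESS with DMSO and 1.28 times as high with BCT, so their order turned in every sample.

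CLSPN, the mediator that carries the checkpoint signal from ATR to CHK1, fell from 8.10 to 2.07 FPKM, by 1.92 on the log2 scale. WDHD1, which links polymerase alpha to the helicase, fell from 15.1 to 6.20 FPKM and was called. TOPBP1, the activator of ATR, had the smallest decrease in the group. It was at 22.1, 22.7 and 21.5 FPKM with DMSO and 12.8, 13.3 and 13.1 FPKM with BCT, a log2 fold change of -0.75 ± 0.05 (adjusted p = 2.7e-06) as deposited and 0.01 with equal FPKM sums.

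The chromatin assembly factor CAF-1 deposits histones on new DNA behind the fork and is bound by PCNA. Its middle subunit CHAF1B was at 25.8, 25.2 and 24.6 FPKM with DMSO and 7.59, 6.34 and 6.16 FPKM with BCT, a log2 fold change of -1.90 ± 0.08 (adjusted p = 6.3e-07). The large subunit CHAF1A was at 37.5, 36.9 and 36.1 FPKM with DMSO and 14.2, 14.03 and 12.8 FPKM with BCT, a log2 fold change of -1.42 ± 0.06 (adjusted p = 4.9e-07). Both were called lower, and CHAF1B went from 0.684 to 0.491 times the level of CHAF1A.

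The subunit ratios above are taken within a sample, so a factor that scales a whole sample leaves them as they are. Quantile normalization, which is not such a factor, lowered the difference for POLD3 against POLD2 from 0.35 to 0.03. Over the 22 pairs compared, the ratios of the 3 BCT samples lay below those of all DMSO samples in 14 pairs, above them in 6 and overlapped in 2, POLA2 to POLA1 and RFC4 to RFC2. Several pairs share a gene, such as RFC1 set against PCNA, RFC3 and RFC5, so the pairs are not independent. With 3 samples against 3, the smallest p of the exact permutation test (two-sided) is 0.1, and 0.11 after adjustment over the 22 pairs, so no pair can pass 0.05. The share of pairs without overlap among other genes was not computed, and for the levels of single genes it was 44.3% below and 41.0% above. The differences ranged from a log2 ratio lower by 2.01 for PCNA against RFC1 to a log2 ratio higher by 1.29 for TIPIN against TIMELESS. The level of a member with DMSO had a weak relation to its change, with a Pearson correlation of -0.19 across the 44 genes, which share the same 6 libraries and are not independent replicates.

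The limit of 0.85 runs through a dense part of the members. CDC45 (-0.88) and PRIM1 (-0.90) were just inside, and ORC6 (-0.84) and TIPIN (-0.83) just outside, with standard errors of 0.05 to 0.07. CDC45 was no longer called without BCT replicate 3, with median-ratio scaling (-0.84), with quantile normalization (-0.78), after the correction for GC content and length (-0.83) or in the test against the limit itself. PRIM1, RFC2 and RNASEH2A were no longer called in that test or with quantile normalization. ORC6, TIPIN and TOPBP1 were called after the correction for GC content and length. TIPIN was called without BCT replicate 1, and ORC6 was called without DMSO replicate 2 or without DMSO replicate 3. Of the 44 members, 12 share the interval deposited for them with other genes. The 32 that do not gave 22 called lower, none higher and a median of -1.10. In the annotation, 11 members have pseudogenes named after them, such as PCNA, RPA2 and FEN1, and reads could be divided between copies. Of these pseudogenes only PCNAP1 has deposited values, at 0.0 FPKM in every sample. The 33 members without such pseudogenes gave 22 called lower.

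A promoter was found in RefSeq for 39 of the 44 members, each window running from 250 bases before to 50 bases after a start site. An E2F word on either strand was present in 15 of the 39 (38.5%), against 3.31% of the 35116 promoters of all genes and 3.99% of the 27305 genes with a promoter. These backgrounds, here and in the next paragraph, include genes that were not tested for expression. The word TTTCCCGC was found in 8, TTTGGCGC in 5, TTTCGCGC in 2 and TTTGCCGC in none. Of the 15 with a word, 10 were called lower, with a median log2 fold change of -1.13. Of the 24 without, 15 were called lower, with a median of -0.97. Members with and without the word therefore had similar shares called. None of the 4 members that rose had one in the window, but neither did FEN1, TIMELESS, POLD1 and CHAF1B, whose decreases were among the largest. Over genes tested that are not members, the median was -0.13 for the 626 with a word and -0.02 for the 8790 without.

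The letters CCAAT, the core of the NF-Y site, were in a promoter of 22 of the 39 members (56.4%), against 34.6% of all promoters and 39.7% of genes with a promoter. Among genes tested that are not members, 4127 held these letters and 5289 did not. In the PCNA stretch printed above they occur 25 bases before the start site on the gene strand and 79 bases before it on the opposite strand. The word TTTGAA, the core of the CHR element found in many genes of the late cell cycle, was present in POLE3 alone, 2.56% of the members against 15.2% of all promoters and 18.2% of genes. A match in these windows is a description of the sequence, and binding was not measured here.

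Genes that act before and beside the fork were described in lists of their own. With equal FPKM sums the medians were -0.61 for licensing, -0.47 for nucleotide supply, -0.38 for other fork factors, -0.24 for the E2F list and 1.11 for the repair polymerases, and the values that follow are as deposited. Of 18 genes of origin licensing and the MCM helicase, 11 were called lower and none higher, with a median of -1.38, and on the adjusted p alone 16 fell and 1 rose. CDC6, which loads MCM with CDT1, fell from 54.2 ± 2.07 (SD, n = 3) to 11.9 ± 0.73 FPKM. The log2 fold change was -2.16 for MCM10 and -2.13 for MCM3. Of 17 genes of nucleotide supply, 10 were called lower and none higher, with a median of -1.23, and on the adjusted p alone 12 fell and 2 rose. Among those called, the log2 fold change was -2.15 for the thymidine kinase TK1 and -2.06 for SHMT1.

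Of 21 other fork factors, 12 were called lower and 1, POLD4, was called higher, with a median of -1.14. The PCNA-binding factor PCLAF, listed under its older symbol KIAA0101, had a log2 fold change of -2.68. That of UHRF1, which maintains DNA methylation at the fork, was -2.599, and that of the histone chaperone ASF1B was -2.29. In the list of E2F, RB and cyclin E-CDK2 genes, 8 of 16 were called lower and none higher, with a median of -0.99, and on the adjusted p alone 12 fell and 2 rose. E2F1 fell from 49.7 ± 0.97 to 11.8 ± 1.61 FPKM (SD, n = 3), and the log2 fold changes were -2.06 for CCNE1 and -2.01 for CDK2.

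Polymerases of repair and translesion synthesis had a median above that of all genes. Of the 13 tested, none was called lower and 4 were called higher, with a median of 0.35, and on the adjusted p alone 3 fell and 8 rose. POLN was below the filter. The translesion polymerase POLK rose from 6.50 ± 0.18 to 18.9 ± 1.92 FPKM (SD, n = 3), the base excision repair polymerase POLB from 20.4 ± 0.67 to 49.2 ± 1.31 FPKM, REV3L by 0.99 and POLM by 0.90 on the log2 scale. By contrast, the 11 subunits of polymerases alpha-primase, delta and epsilon among the members all fell as deposited except POLE4. The delta subunit POLD4, which is not a member, rose by 1.33 on the log2 scale and was called higher. POLE4 (-0.02) did not pass the test. With equal FPKM sums POLD2, POLD3, POLE, POLE3 and POLE4 were above 0.

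The 10 checkpoint genes around ATR had a median of -0.46 as deposited and 0.30 with equal FPKM sums. RAD9A was called lower (-1.24) and 2, ETAA1 (1.27) and HUS1 (1.15), were called higher, which for 10 genes is near the shares over all genes (17.8% lower and 13.9% higher). RAD9A and HUS1 are partners in the 9-1-1 clamp, while ETAA1 is, like TOPBP1, an activator of ATR. Of 20 mitotic genes, 6 were called lower and none higher, with a median of -0.55 as deposited and 0.22 with equal FPKM sums, and on the adjusted p alone 18 fell and 1 rose as deposited. NUF2 (-1.29), BUB1B (-0.98) and BIRC5 (-0.91) changed most among those called, and CDC20 rose by 0.34. The lists overlap in function with the members but in no gene, and whether any list differed from another was not tested.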

How the data were processed

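RNA was measured in 3 DMSO and 3 BCT samples of 22RV1 cells, grouped by the agent in the labels. Per the labels and the study's methods, TruSeq v2 libraries (which keep no strand) were read as paired ends, trimmed with Trimmomatic 0.38, aligned to hg19 with HISAT2 and summarised by the authors as FPKM, the deposited unit. The methods name StringTie and the submitters' processing notes name CASAVA and HTSeq, whose part in the values is not given in the sources used here. Read numbers are not part of these files, so the relative depth was taken from the most common ratio of low values between samples, and no interval for counting error or count test was possible.

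The 26255 genes were matched by symbol. After a filter on the mean level (at least 1 FPKM), 12729 were tested on log2(FPKM + 0.1) in R 4.3.3, using the trended eBayes of limma 3.58.1 and Benjamini-Hochberg adjustment. The pseudocount understates the change of low genes. Calls needed a log2 fold change over 0.85 in size with an FDR under 0.05. The steps were tested on simulated data. Subunit ratios were compared with the exact permutation test of scipy 1.17.1.

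Gene positions on hg19 are those of GENCODE (release lifted to GRCh37), and promoters are those of RefSeq on GRCh38.p14. The members and lists were chosen with earlier results of these data known. All 44 members are named. Values in every sample are given at least for the members with the largest and the smallest change of each role group, and from other lists at most 3 called genes with the largest change and any higher one are named. A gene that this rule covers is not reported here. Alternatives covered the pseudocount, the filter, the scaling, the variance model, the threshold, the replicate block and each sample left out, and a correction by loess (span 0.5) for GC content and transcript length was added after the data were examined. PCNA-interacting peptides in the proteins were not analysed here. The replicate numbers are shared by both groups, but the labels do not say what they mark.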

Additional observations from a re-analysis of the deposited data

How the results depend on the processing

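With the pseudocount at 1, the median log2 fold change of the members was -0.998, against -1.042. With equal FPKM sums 11 members were called lower and 4 higher and the median was -0.276, and with equal sums leaving MIR6087 out it was 15, 1 and -0.657. Leaving out each sample in turn gave 27 to 29 called lower and a median of -1.086 (without BCT replicate 1) to -1.011. The count of members called lower was 24 to 30 under the other alternatives, with 24 under quantile normalization and under a test against the fold change threshold, and 30 after correction for GC content and length. With equal FPKM sums the sign turned for ORC3 (0.325), POLD2 (0.063), POLD3 (0.409), POLE (0.209), POLE3 (0.17), POLE4 (0.75), RPA2 (0.391), RNASEH2C (0.279) and TOPBP1 (0.011), and without MIR6087 in the sum for POLD3 (0.03), POLE4 (0.369) and RPA2 (0.009), since these scalings raise all genes. POLE4, which never passed as deposited, also turned with median-ratio scaling (0.02), quantile normalization (0.102) and the GC and length correction (0.007), and ranged from -0.045 to 0.002 with each sample left out. RFC1 was at -0.147 after that correction and ranged from -0.03 to 0.038 with each sample left out, and the difference in the ratio POLA2/POLA1 was 0.194 after it. The cause was not tested. Over 44 members and 20 alternatives, 807 values were unchanged in sign and in call, 41 lost a call, 11 gained one and 21 changed sign.

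The replicate number as a block left 28 members called lower, none higher and a median of -1.042. Deviations of same-numbered samples had correlations of 0.116, 0.033 and 0.034, and DMSO replicate 2 correlated best with BCT replicate 3 (0.074), so the numbers are not shown to pair the samples. Levels rest on FPKM without counts, which limits what can be said of the precision of low members such as CLSPN and DNA2.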
